A study of Mus musculus with 10 samples.

Results

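The cell cycle and DNA replication genes examined here are 45 genes that dividing cells switch on to copy their DNA and to divide. They were taken by name: each is the row of the count table whose Ensembl identifier carries that symbol in GENCODE M21, the mouse annotation on GRCm38. All 45 were found among 55385 mouse gene identifiers, and all 45 were among the 29648 genes with enough reads to be tested. By role they comprised 7 cyclins, kinase and E2F genes, 9 mitotic kinase, checkpoint and ubiquitin ligase genes, 5 chromosome and centromere genes, 9 spindle and cytokinesis genes, 11 replication origin and fork genes, and 4 nucleotide synthesis genes.

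The libraries were bulk RNA-seq of red fluorescent (Tomato+) cells isolated as neutrophils from squamous cell carcinomas (SCC) grafted on CatchupIVM-red mice, a line in which Tomato is tied to the neutrophil gene Ly6g. Grafts were either the parental Sox2low control cells or Sox2Hi SCC cells, and hosts were left naive or were given anti-PDL1/CD40 agonist once tumours had formed. Each graft gave 3 naive and 2 treated libraries, 10 in all, with 13815734 to 22986193 counts a library. The library descriptions mark the control graft with GFP and all 4 groups with C57, and the first control treated library carries replicate number 2.2 there. Host age, host sex, dose, time after treatment and whether each library came from its own animal are not given in the sources used here, so p-values measure the spread between these libraries only. The stated question is what Sox2 in the grafted cells does to tumour neutrophils and to their response.

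Mature neutrophils have left the cell cycle, and in the marrow their precursors still divide. In a cycling cell the retinoblastoma and E2F proteins govern genes for DNA synthesis such as the Mcm helicase, Pcna and ribonucleotide reductase. Genes of mitosis, such as Cdk1, cyclin B and the spindle motors, come on later under the MuvB complex with B-Myb and FoxM1, which binds CHR elements, and NF-Y, which binds CCAAT boxes.

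Promoter windows of 250 bases before the gene start were available from RefSeq (GRCm38.p6) as 40 windows for 37 of the 45 genes, without Aurkb, Ccna2, Ccne2, Gins2, Kif20a, Mcm4, Stmn1 and Tpx2. They were searched on both strands for an E2F site (TTGGCGC, the related TTCCCGC, and also TTGCCGC or the form TTCGCGC), for the CHR element (TTTGAA) and for CCAAT. The E2F site was in 32.5% of the 40 windows, against 7.89% of all 32851 windows of this length. CCAAT was in 80.0%, against 33.8%, and CHR in 25%, against 15.99%. The 23 windows of 22 mitotic genes, counting Cdk1 and cyclins B1 and B2, held the E2F site in 17.4% and CHR in 34.8%. The 17 windows of 15 replication and nucleotide synthesis genes, counting Ccne1 and E2f1, held the E2F site in 52.9% and CHR in 11.8%. A match is a description of the letters and shows no binding. One window is shown in part for each motif, the one with the most matches that overlaps no annotated exon and was not already printed. Each is printed from 20 bases before its first match to the base before the gene start, with the matched letters in capitals. Mcm6 (chr1:128359706-128359834, minus strand) has 4 E2F matches, in 2 stretches of TTGGCGCGAA that each hold TTGGCGC on this strand and, overlapping it, TTCGCGC on the other. Top2a (chr11:99024190-99024388, minus strand) has 2 CHR matches, and its CCAAT letters are left in lower case. Ccnb2 (chr9:70421555-70421661, minus strand) has 3 CCAAT matches.
Mcm6: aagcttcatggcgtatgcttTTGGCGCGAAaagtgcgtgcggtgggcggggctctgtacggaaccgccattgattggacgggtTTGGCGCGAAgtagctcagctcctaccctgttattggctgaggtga
Top2a: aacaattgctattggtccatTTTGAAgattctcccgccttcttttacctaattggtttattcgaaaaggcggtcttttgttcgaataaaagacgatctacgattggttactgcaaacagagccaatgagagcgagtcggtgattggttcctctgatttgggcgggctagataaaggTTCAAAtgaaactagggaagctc
Ccnb2: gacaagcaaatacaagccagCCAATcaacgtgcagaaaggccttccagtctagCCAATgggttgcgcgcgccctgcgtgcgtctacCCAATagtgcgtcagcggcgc

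All 45 genes had reads in every library, though not all lay clearly above the background described below. No gene was at 0 in any library, and the fewest reads for a gene in a library were 11, for E2f1. Per kb of exon length, mean counts-per-million (CPM) over the 10 libraries were highest for Pcna (70.1), the sliding clamp that holds DNA polymerase at the fork. Stmn1 (31.5), a regulator of microtubules, and Ccnb2 (20.6), cyclin B2, came next. Mcm2 (0.65), a subunit of the replicative helicase, and E2f1 (0.89), a transcription factor, were lowest. Reads also fell on 1420 genes for olfactory and vomeronasal receptors, taken here as silent. Their median reads per kb in each library, applied to the exon length of each of the 45 genes, would supply a median of 7.34% of the reads as background. It would supply 0.45% for Pcna and 45.8% for Mcm2, with 17 genes above 10% and 4 above 25%.

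Defining markers of the labelled cell were present: the neutrophil alarmin S100a8 ranged from 1012 to 11868 CPM, and the neutrophil surface gene Ly6g was 1.57 to 3.53 CPM in the naive libraries and 5.13 to 20.6 CPM in the treated ones. The 14 neutrophil markers summed to between 18446 and 28267 CPM in naive libraries and between 24427 and 39367 in treated ones, as shares of library totals. The 14 keratinocyte markers summed to 505 to 2516 CPM over the 10 libraries and the 10 fibroblast and endothelial markers to 81 to 909 CPM, so RNA of other tumour cells was measured in every library. The 10 neutrophil precursor markers summed to 64 to 142 CPM in naive and to 253 to 613 CPM in treated libraries. Of those, Elane, the protease of the earliest precursors, was at 0 in the second Sox2Hi treated library and at most 0.76 CPM elsewhere. In bulk RNA, fewer cells of a type and less RNA per cell cannot be told apart.

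**Figure D1:**
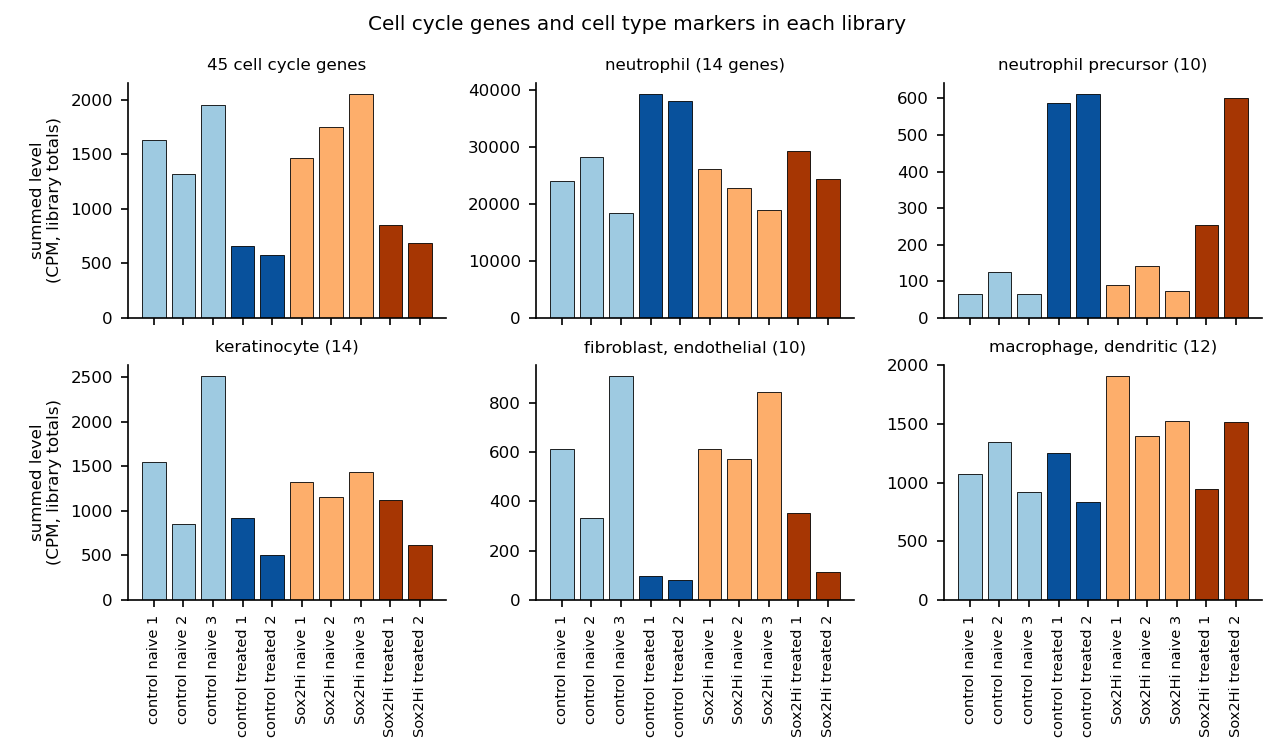
Summed CPM by library totals (vertical axes, linear, from 0) for the 45 genes and for 5 marker lists, 1 bar per library, with naive before treated and the control graft before Sox2Hi. The cell cycle bars and the fibroblast and endothelial bars are lower in the treated than in the naive libraries of the same graft, while the precursor bars are higher.

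Both of 2 scalings of the counts are used throughout, since they differ for the control graft. In the first, here the all-gene scaling, TMM factors come from all 29648 tested genes. In the second, the expressed-gene scaling, only the 11274 genes that average 5 CPM or more are tested and set the factors; 42 of the 45 genes enter it, without Ccne1, E2f1 and Mcm2. The all-gene factors of the control treated libraries were 0.630 and 0.589, against 0.930 to 1.40 in the others, and background made up 1.73% and 1.60% of their counts, against 3.66% to 8.40%. Its part in the scaling was not tested. Moving from the first scaling to the second shifted Pcna by the change from 0.69 to 0.14 on the log2 scale in the control graft and from -0.45 to -0.17 in the Sox2Hi graft, and the other genes moved alike.

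As a share of library totals, which uses neither scaling, the 45 genes together took 1633, 1316 and 1952 CPM in the control naive libraries and 663 and 572 CPM in the control treated ones. They took 1467, 1752 and 2057 CPM in the Sox2Hi naive libraries and 851 and 685 CPM in the Sox2Hi treated ones. All 4 treated libraries were below all 6 naive libraries. The means were 1633.6 ± 318.0 (SD, n = 3) and 617.4 ± 64.4 (SD, n = 2) in the control graft, and 1758.6 ± 295.2 (SD, n = 3) and 768.1 ± 117.3 (SD, n = 2) in the Sox2Hi graft. Under the all-gene scaling the control groups overlapped, at 1329.0, 946.1 and 1630.4 CPM naive against 1053.1 and 972.2 CPM treated. The Sox2Hi groups did not overlap there, at 1354.3, 1640.5 and 1922.5 CPM naive against 762.5 and 739.0 CPM treated.

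**Figure D2:**
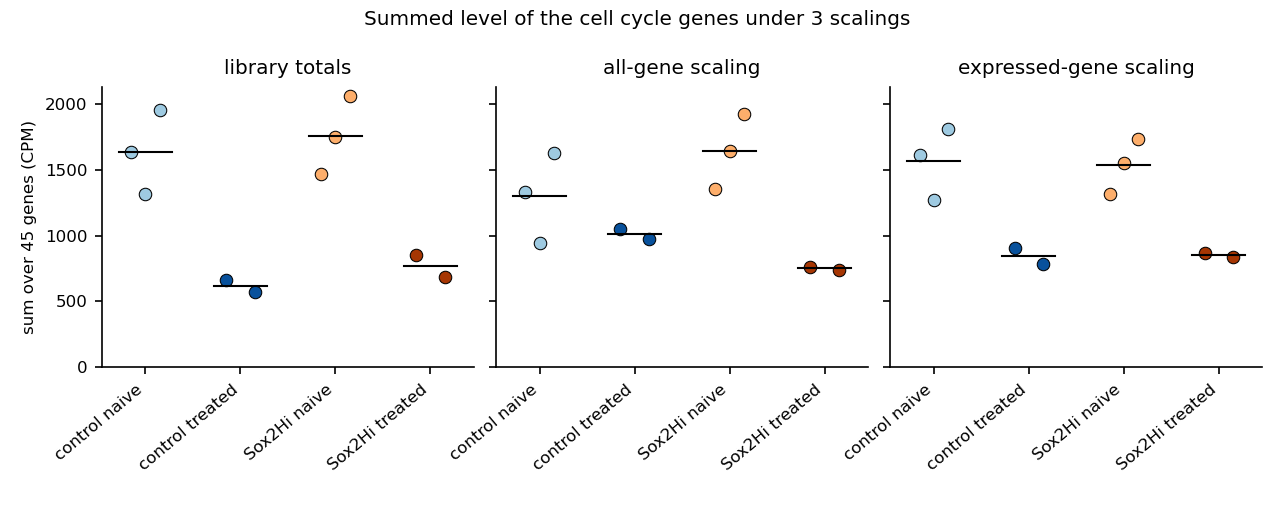
Summed CPM of the 45 genes in each library (points) under library totals, all-gene scaling and expressed-gene scaling (3 panels), with a line at each group mean. Treated points lie below naive points in each panel, except in the control graft under the all-gene scaling, where 1053.1 and 972.2 CPM lie above the lowest naive library at 946.1 CPM.

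In Sox2Hi tumours the cell cycle genes were lower after treatment across all 6 roles. By edgeR's quasi-likelihood test at an adjusted p under 0.05, 24 of 45 fell and 0 rose, where 1.82% of all tested genes fell and 1.79% rose. All 45 had a change below 0, with a median of -1.22 on the log2 scale, against 0.07 over all genes tested and -0.13 over the 13278 genes within the same range of mean CPM. For 43 of the 45, both treated libraries were below all 3 naive ones; 21.8% of all tested genes lay apart in that direction and 22% in the other. The exceptions were E2f1 and Cdc45, a component of the helicase at the fork. Under the expressed-gene scaling 32 of 42 fell and 0 rose, where 6.57% of tested genes fell and 15% rose, and the median was -1.07 against 0.09 for all genes. The calls rest on every library: leaving out 1 Sox2Hi library at a time left 0 to 18 calls, with 1 (Mcm6) without naive replicate 3, 7 without naive replicate 2, 1 (Mcm6) without treated replicate 1 and 0 without treated replicate 2. All 45 changes remained below 0 in each of these, and in the fits without a treated library the remaining one is assumed to vary like the other groups. Shares of all genes called in these fits are not given here. The counts thus do not show whether calls were lost in these genes or in all genes.

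In control tumours the count of genes that fell turned on the scaling, and so did which graft had more calls. Against 12 calls in control and 24 in Sox2Hi tumours under the all-gene scaling, there were 34 and 32 under the expressed-gene scaling. Factors from the expressed genes applied to all genes gave 36 and 22, where 44% and 1.45% of all tested genes fell. Library totals gave 43 and 35, where 68% and 4.41% fell. RLE factors, the kind DESeq2 uses, went the other way, with 6 lower and 2 higher in control and 23 lower in Sox2Hi tumours, where 8.07% fell and 21.9% rose in control and 1.82% fell in Sox2Hi tumours. Under the all-gene scaling 11 of 45 fell and 1, Pcna, rose by edgeR's test, where 15.3% of all tested genes fell and 18.7% rose. The median change was -0.70, against -0.30 over all tested genes and 0.18 over genes within the same range of mean CPM, and 36 of the 45 changes were below 0. For 17 genes both treated libraries were below all 3 naive ones and for 3 (Ccne1, Pcna and Cdc6) above them, where 34.8% of all genes were apart downward and 23.7% upward. Under the expressed-gene scaling 34 of 42 fell and 0 rose, where 33.1% of tested genes fell and 24.1% rose, with a median of -1.21 against -0.18 for all. As shares of library totals, all 45 were lower in both treated libraries than in all 3 naive ones, but so were 73.9% of all tested genes. For the Sox2Hi graft the same scale had 43 of 45 lower, where 23.1% of all tested genes were. No share of all genes is given beside the counts that follow, from fits without 1 control library, so they are not read against all genes. The all-gene count ranged from 1 to 23 when 1 control library was left out; it was 1 (Mcm5) without treated replicate 2, 8 without naive replicate 1 and 23 without naive replicate 2.

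Of the 45 genes, 7 fell in both grafts under the all-gene scaling, where 0.465% of all tested genes did. That is 7 of the 11 that fell in control tumours and 7 of the 24 that fell in Sox2Hi tumours. They were Cdk1, Aurkb, Birc5, Anln, Mcm5, Rrm1 and Tk1. With the expressed-gene scaling 30 fell in both, out of 34 and 32, where 5.14% of tested genes did. The overlap itself was not tested. Whether the treatment effect itself differed between grafts is taken up after the single genes.

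**Figure D3:**
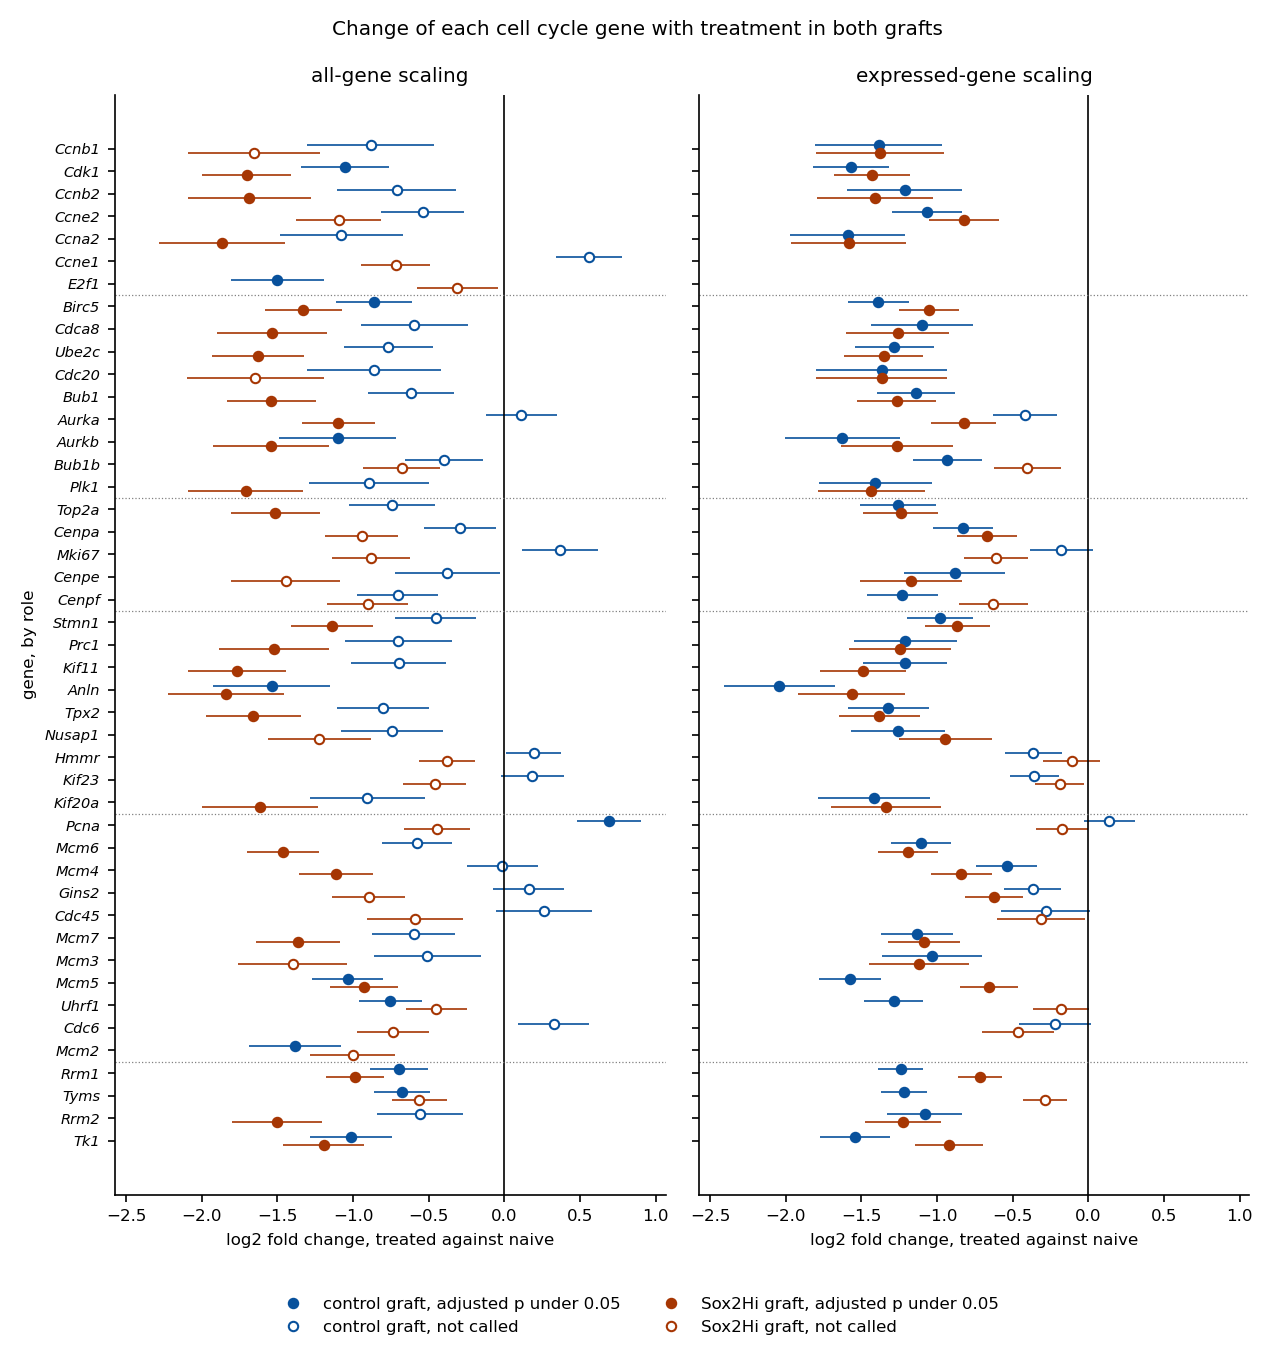
Log2 fold change of treated against naive libraries with its standard error (horizontal axis) for each of the 45 genes (rows by role), in control and Sox2Hi tumours, left under the all-gene and right under the expressed-gene scaling; filled points passed edgeR's test. On the left 24 Sox2Hi points are filled and all 45 lie below 0, and on the right 34 control and 32 Sox2Hi points are filled, all below 0.

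Among the cyclins, Cdk1 and E2f1, 3 of 7 fell in Sox2Hi tumours and 2 of 7 in control tumours under the all-gene scaling, with medians of -1.65 and -0.88. All 5 of those tested with the expressed-gene scaling fell in each graft. Counts by role are read against the shares of all genes given above, of which 1.82% fell in Sox2Hi tumours and 15.3% in control tumours under the first scaling, and 6.57% and 33.1% under the second. Cdk1 (ENSMUSG00000019942, chromosome 10, 69335146 to 69352938), the kinase that drives entry into mitosis, had 46.2, 28.8 and 59.1 CPM in control naive libraries, then 24.7 and 18.4 in control treated ones. Cdk1 in the Sox2Hi graft had 45.5, 52.4 and 65.4 CPM naive and 17.4 and 15.9 treated. Both treated libraries were below every naive one in each graft. It fell by 1.05 on the log2 scale in control tumours (SE 0.29, edgeR adjusted p = 0.0166) and by 1.70 in Sox2Hi tumours (SE 0.30, edgeR adjusted p = 0.0145). Ccna2, cyclin A2, which acts in S phase and early mitosis, had 9.30, 16.7 and 22.0 CPM in Sox2Hi naive libraries, then 4.75 and 3.99 in Sox2Hi treated ones. That was the largest fall among the genes called in this graft (-1.87, SE 0.42, edgeR adjusted p = 0.0360).

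Cyclins B1 and B2, the mitotic partners of Cdk1, varied more among control libraries. Ccnb1 had 65.2, 42.8 and 83.9 CPM in control naive libraries, then 53.0 and 16.5 in control treated ones. Here the groups overlapped, since the first treated library lay above the second naive one. Ccnb1 in the Sox2Hi graft had 49.9, 69.3 and 80.6 CPM naive and 22.4 and 19.9 treated, with no overlap. Its change missed the threshold in both (-0.88, edgeR adjusted p = 0.120, and -1.65, edgeR adjusted p = 0.0591) and passed in both under the expressed-gene scaling (-1.38, edgeR adjusted p = 0.0162, and -1.38, edgeR adjusted p = 0.0409). Ccnb2 had 38.8, 20.3 and 46.6 CPM in control naive libraries, then 30.5 and 12.6 in control treated ones. Ccnb2 in the Sox2Hi graft had 39.6, 39.6 and 59.0 CPM naive and 13.3 and 15.3 treated, and fell by 1.69 (SE 0.41, edgeR adjusted p = 0.0461). The control change of -0.71 did not pass (edgeR adjusted p = 0.173).

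The E cyclins bind Cdk2 at the start of S phase. Ccne1 (chromosome 7, 38097984 to 38107534) had 3.10, 3.12 and 3.72 CPM in control naive libraries, then 4.20 and 5.55 in control treated ones. Ccne1 in the Sox2Hi graft had 3.54, 4.94 and 4.31 CPM naive and 2.63 and 2.54 treated, so the treated libraries were above the naive ones in 1 graft and below them in the other. Neither change passed the test (0.56, edgeR adjusted p = 0.0679, and -0.72, edgeR adjusted p = 0.0966). The control value of Ccne1 was above 0 in 16 of 17 alternatives and passed in 1, with RLE factors (0.74, edgeR adjusted p = 0.0225). It was 0.0068 with factors from the expressed genes, where the Sox2Hi value was -0.45, and -0.51 by library totals. Ccne2 had 18.1, 10.8 and 21.3 CPM in control naive libraries, then 10.99 and 12.1 in control treated ones, which overlap. Ccne2 in the Sox2Hi graft had 14.5, 18.5 and 21.4 CPM naive and 8.33 and 8.64 treated, a change of -1.10 (edgeR adjusted p = 0.0534). Under the expressed-gene scaling Ccne2 fell in both grafts (-1.07, edgeR adjusted p = 0.0029, and -0.82, edgeR adjusted p = 0.0303).

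E2f1 (chromosome 2, 154559407 to 154569892), an activator of S-phase genes, had 3.25, 3.12 and 3.43 CPM in control naive libraries, then 1.51 and 0.81 in control treated ones. It fell by 1.5 in that graft (SE 0.31, edgeR adjusted p = 0.0036). E2f1 in the Sox2Hi graft had 4.19, 3.02 and 3.19 CPM naive and 3.30 and 2.30 treated, overlapping, with a change of -0.31 (SE 0.27, edgeR adjusted p = 0.540). These are 11 to 83 reads a library, and over the 10 libraries together background would supply 33.3% of them. The 11 reads were in the second control treated library, where silent genes had a median of 2.81 reads per kb. With 3154 exon bases, E2f1 lay near background there.

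Of the mitotic kinase, checkpoint and ubiquitin ligase genes, 7 of 9 fell in Sox2Hi tumours and 2 of 9 (Birc5 and Aurkb) in control tumours under the all-gene scaling, with medians of -1.54 and -0.77. With the expressed-gene scaling 8 of 9 fell in each graft. Birc5, or survivin, a subunit of the chromosomal passenger complex that corrects spindle attachments, had 43.7, 28.1 and 52.4 CPM in control naive libraries, then 22.7 and 22.9 in control treated ones. Birc5 in the Sox2Hi graft had 34.9, 42.4 and 46.8 CPM naive and 17.2 and 15.8 treated. It fell by 0.86 (SE 0.25, edgeR adjusted p = 0.0215) and by 1.33 (SE 0.25, edgeR adjusted p = 0.0221), with no overlap in either graft. Cdca8, borealin, another subunit of that complex, had 31.5, 20.3 and 42.9 CPM in control naive libraries, then 28.9 and 13.0 in control treated ones, which overlap. Cdca8 in the Sox2Hi graft had 33.7, 38.3 and 48.1 CPM naive and 14.7 and 12.9 treated, and fell by 1.54 (SE 0.37, edgeR adjusted p = 0.0446). Ube2c, the E2 enzyme of the anaphase-promoting complex, had 19.7, 13.7 and 28 CPM in control naive libraries, then 14.3 and 9.76 in control treated ones. Ube2c in the Sox2Hi graft had 23.4, 28.2 and 33.6 CPM naive and 9.34 and 8.999 treated, and fell by 1.63 (SE 0.30, edgeR adjusted p = 0.0201). The control changes of Cdca8 (-0.60) and Ube2c (-0.77) missed the threshold and passed under the expressed-gene scaling (-1.10, edgeR adjusted p = 0.0166, and -1.28, edgeR adjusted p = 0.0021).

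Of the 5 chromosome, centromere and kinetochore genes, 1 fell in Sox2Hi tumours and 0 in control tumours under the all-gene scaling, and 3 and 4 fell under the expressed-gene scaling. Top2a (ENSMUSG00000020914, chromosome 11, 98992943 to 99024189), the topoisomerase that untangles sister chromatids, had 80.4, 45.4 and 95.4 CPM in control naive libraries, then 50.3 and 37.9 in control treated ones. Top2a in the Sox2Hi graft had 71.3, 82.4 and 98.7 CPM naive and 29.9 and 29.0 treated. It fell by 1.52 there (SE 0.29, edgeR adjusted p = 0.0229), and in control tumours the change was -0.74 (SE 0.28, edgeR adjusted p = 0.0628; expressed-gene scaling -1.26, edgeR adjusted p = 0.0018). Cenpa, the histone variant that marks centromeres, had 45.2, 34.8 and 53.0 CPM in control naive libraries, then 35.8 and 36.5 in control treated ones. Cenpa in the Sox2Hi graft had 41.9, 54.7 and 57.4 CPM naive and 21.6 and 31.8 treated. Its changes were -0.29 (edgeR adjusted p = 0.340) and -0.94 (edgeR adjusted p = 0.0539), and both passed under the expressed-gene scaling (-0.83, edgeR adjusted p = 0.0050, and -0.67, edgeR adjusted p = 0.0364).

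Mki67 (ENSMUSG00000031004, chromosome 7, 135689784 to 135716361), the gene of the proliferation marker Ki-67, had 30.6, 19.98 and 32.1 CPM in control naive libraries, then 27.2 and 43.9 in control treated ones, where the second treated library was the highest and the first lay within the naive range. Mki67 in the Sox2Hi graft had 34.4, 31.3 and 40.3 CPM naive and 19.2 and 19.1 treated, with no overlap. Neither change passed the test (0.37, SE 0.25, edgeR adjusted p = 0.264, and -0.88, SE 0.26, edgeR adjusted p = 0.0797). The control direction of Mki67 depends on the scaling: it was -0.18 (edgeR adjusted p = 0.474) under the expressed-gene scaling and -0.69 (edgeR adjusted p = 0.017) by library totals.

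Of the 9 spindle and cytokinesis genes, 6 fell in Sox2Hi tumours and 1 in control tumours under the all-gene scaling, with medians of -1.52 and -0.70. With the expressed-gene scaling 7 of 9 fell in each graft. Anln (ENSMUSG00000036777, chromosome 9, 22332012 to 22389188), anillin, a scaffold of the cleavage furrow, had 32.6, 18.6 and 43.3 CPM in control naive libraries, then 14.9 and 6.80 in control treated ones. Anln in the Sox2Hi graft had 40.2, 45.4 and 60.8 CPM naive and 14.1 and 13.1 treated. It had the largest fall among the genes called in control tumours (-1.54, SE 0.39, edgeR adjusted p = 0.0109) and fell by 1.84 in Sox2Hi tumours (SE 0.39, edgeR adjusted p = 0.0293). Kif11, the motor that separates spindle poles, had 37.4, 21.8 and 47.5 CPM in control naive libraries, then 25.9 and 17.9 in control treated ones. Kif11 in the Sox2Hi graft had 39.98, 50.9 and 62.6 CPM naive and 15.5 and 14.6 treated, and fell by 1.77 (SE 0.33, edgeR adjusted p = 0.0192). Its control groups overlapped (-0.70, edgeR adjusted p = 0.101).

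Prc1, which bundles microtubules at the spindle midzone, had 40.9, 26.1 and 53.9 CPM in control naive libraries, then 33.7 and 15.98 in control treated ones. Prc1 in the Sox2Hi graft had 43.0, 48.4 and 63.1 CPM naive and 20.8 and 15.04 treated, and fell by 1.52 (SE 0.36, edgeR adjusted p = 0.0453). The first control treated library exceeded the second by a larger margin than in Kif11, as it did for Ccnb1 and Cdca8. Stmn1, stathmin, which destabilises microtubules and is also made outside mitosis, had 68.2, 41.7 and 83.8 CPM in control naive libraries, then 45.8 and 48.4 in control treated ones. Stmn1 in the Sox2Hi graft had 67.0, 79.8 and 96.9 CPM naive and 37.4 and 36.2 treated, and fell by 1.14 (SE 0.27, edgeR adjusted p = 0.0445). In control tumours the changes of Prc1 (-0.70) and Stmn1 (-0.46) did not pass, and both passed under the expressed-gene scaling (-1.21, edgeR adjusted p = 0.0110, and -0.98, edgeR adjusted p = 0.0032).

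Of the 11 replication origin and fork genes, 4 fell in Sox2Hi tumours under the all-gene scaling, and in control tumours 3 fell and 1 rose, where 18.7% of all genes rose. With the expressed-gene scaling 6 of the 10 tested fell and 0 rose in each graft. Mcm6 (ENSMUSG00000026355, chromosome 1, 128331590 to 128359664), a subunit of the helicase loaded at origins, had 50.9, 42.0 and 64.8 CPM in control naive libraries, then 39.8 and 30.8 in control treated ones. Mcm6 in the Sox2Hi graft had 65.5, 81.8 and 93.5 CPM naive and 31.2 and 26.9 treated, with no overlap in either graft. It fell by 1.47 in Sox2Hi tumours (SE 0.24, edgeR adjusted p = 0.0098); in control tumours the change was -0.58 (edgeR adjusted p = 0.0732; expressed-gene scaling -1.10, edgeR adjusted p = 0.0012). Mcm4, from the same hexamer, had 29.5, 21.6 and 36.0 CPM in control naive libraries, then 32.8 and 24.7 in control treated ones. Mcm4 in the Sox2Hi graft had 39.7, 49.0 and 54.2 CPM naive and 22.4 and 21.6 treated, and fell by 1.11 (SE 0.24, edgeR adjusted p = 0.0335). In control tumours the Mcm4 change was -0.01 (edgeR adjusted p = 0.968) with overlapping groups; it was 0.17 with RLE factors and -0.54 (edgeR adjusted p = 0.0393) under the expressed-gene scaling. The helicase subunits Mcm2 (-1.38, edgeR adjusted p = 0.0054) and Mcm5 (-1.04, edgeR adjusted p = 0.0065) were among those that fell in control tumours, chosen for mention after their values were seen. Background would supply 45.8% of the reads of Mcm2. Its lowest count, 22 reads, was in the second control treated library, where silent genes had a median of 2.81 reads per kb. With 6956 exon bases, Mcm2 lay near background there.

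Pcna (ENSMUSG00000027342, chromosome 2, 132249162 to 132253314) was the 1 gene that rose. It had 145, 118 and 162 CPM in control naive libraries, then 183 and 274 in control treated ones, a change of 0.69 (SE 0.21, edgeR adjusted p = 0.0272). Pcna in the Sox2Hi graft had 160, 180 and 198 CPM naive and 120 and 143 treated, a change of -0.45 (SE 0.22, edgeR adjusted p = 0.258), with no overlap. The control rise was lost under the expressed-gene scaling (0.14, edgeR adjusted p = 0.494), and by library totals the Pcna value was -0.38. The share of Pcna among all reads of the 45 genes uses no scaling. It was 10.9%, 12.5% and 9.94% in control naive libraries, then 17.3% and 28.2% in control treated ones. In Sox2Hi tumours it was 11.8%, 10.97% and 10.3% naive and 15.7% and 19.4% treated. All 4 treated libraries were above all 6 naive ones.

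The 11 replication origin and fork genes, Pcna among them, took 22.6%, 26.2% and 22.6% of the reads in control naive libraries, then 30.8% and 41.1% in control treated ones, and 26.96%, 26.6% and 25.3% in Sox2Hi naive libraries, then 32.3% and 33.7% in Sox2Hi treated ones. With Pcna left out of both counts, the other 10 took 13.2%, 15.7% and 14.1% of the reads of the remaining 44 genes in control naive libraries, then 16.3% and 17.96% in control treated ones. They took 17.1%, 17.6% and 16.7% in Sox2Hi naive libraries, then 19.6% and 17.8% in Sox2Hi treated ones. Within each graft both treated libraries were above all 3 naive ones. The share of the cyclins, Cdk1 and E2f1 was 14.1%, 12.3% and 14.6% in control naive libraries, then 12.5% and 7.35% in control treated ones, which overlap. It was 12.3%, 12.5% and 13.3% in Sox2Hi naive libraries, then 9.47% and 9.28% in Sox2Hi treated ones, which do not. These shares are descriptions with no test.

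**Figure D4:**
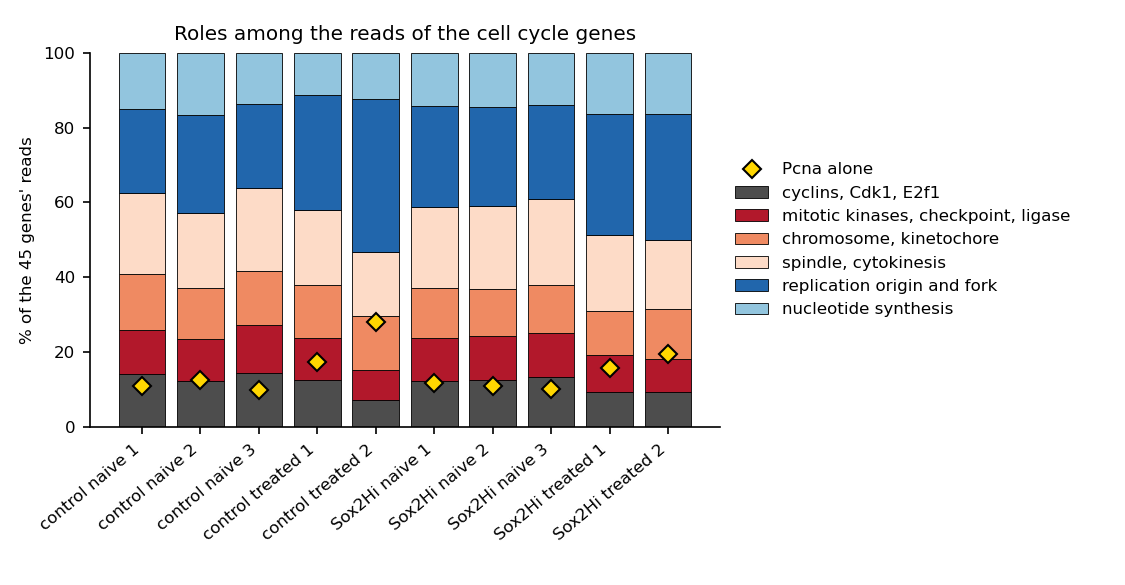
Percent of all reads of the 45 genes taken by each of the 6 role groups in each library (stacked bars, 0 to 100%), with a diamond for Pcna alone. The diamonds lie between 9.94% and 12.5% in the 6 naive libraries and between 15.7% and 28.2% in the 4 treated ones.

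Of the 4 nucleotide synthesis genes, 3 fell in each graft under the all-gene scaling, with medians of -0.69 in control and -1.09 in Sox2Hi tumours. With the expressed-gene scaling all 4 fell in control and 3 in Sox2Hi tumours. Rrm1, the large subunit of ribonucleotide reductase, had 73.2, 63.5 and 83.7 CPM in control naive libraries, then 44.1 and 46.6 in control treated ones. Rrm1 in the Sox2Hi graft had 87.4, 104 and 120 CPM naive and 51.2 and 53.2 treated. It fell by 0.70 (SE 0.19, edgeR adjusted p = 0.0162) and by 0.99 (SE 0.19, edgeR adjusted p = 0.0226), with close agreement between treated libraries. Rrm2, the small subunit, whose amount limits the enzyme in S phase, had 27.4, 17.8 and 33.6 CPM in control naive libraries, then 18.8 and 16.9 in control treated ones. Rrm2 in the Sox2Hi graft had 25.5, 36.0 and 40.7 CPM naive and 13.9 and 10.1 treated, and fell by 1.503 (SE 0.29, edgeR adjusted p = 0.0239); the control change was -0.56 (edgeR adjusted p = 0.145). Tyms, thymidylate synthase, had 80.1, 62.8 and 80.7 CPM in control naive libraries, then 46.0 and 47.3 in control treated ones. Tyms in the Sox2Hi graft had 62.1, 74.7 and 81.4 CPM naive and 49.9 and 48.6 treated, with no overlap in either graft. It fell by 0.67 in control tumours (SE 0.19, edgeR adjusted p = 0.0166), and the Sox2Hi change was -0.56 (SE 0.18, edgeR adjusted p = 0.107).

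**Figure D5:**
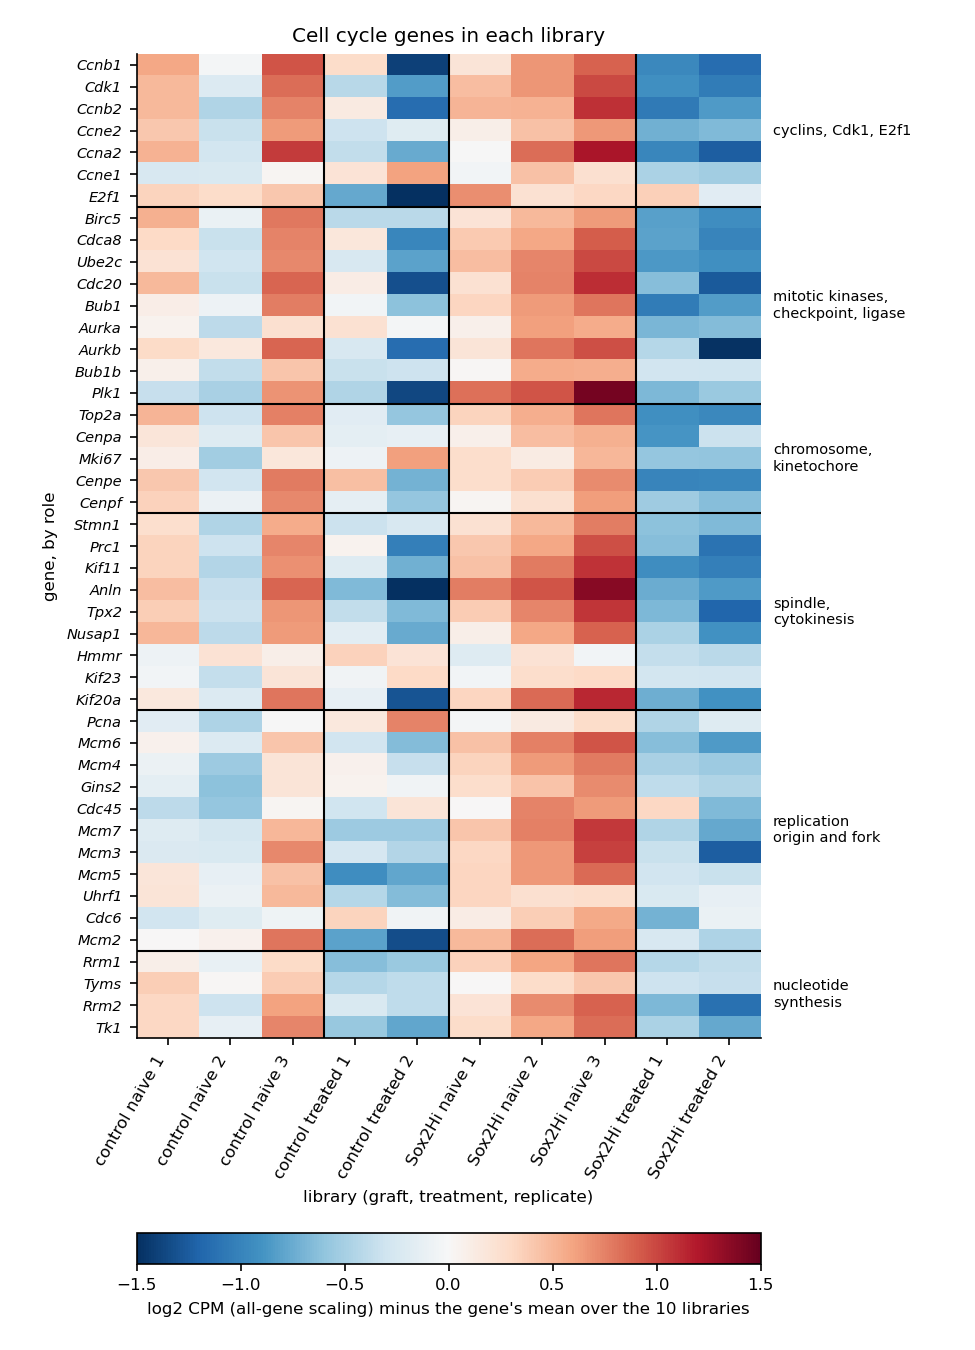
Heat map of the 45 genes (rows by role) over the 10 libraries (columns by group), coloured by log2 CPM under the all-gene scaling minus the gene's mean over the libraries. Within each graft most genes are highest in the third naive library, while Pcna, Mki67 and Ccne1 are highest in the second control treated library.

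The naive libraries of a graft differed from one another in the whole set. Control naive replicate 3 was the highest of its group for 44 of 45 genes and replicate 2 the lowest for 41, where these libraries were highest and lowest for 35.8% and 34.4% of all tested genes. Sox2Hi naive replicate 3 was the highest for 37 and replicate 1 the lowest for 42, against 39.1% and 36.9% of all genes. Both libraries numbered 3 also held reads of Ddx3y, a gene of the Y chromosome, together with Xist, the RNA of the inactive X chromosome. With both left out, a fit chosen after seeing the data, 5 genes (Bub1, Cdk1, Mcm6, Mcm7 and Ube2c) fell in Sox2Hi tumours in place of 24, where 0.22% of all tested genes fell. All 45 changes were still below 0 there. In control tumours 8 fell and 1 rose, where 12.8% and 18.4% of all genes did. Keratinocyte markers moved with the order of the naive libraries in part. Their summed CPM by library totals was 1553, 848 and 2516 in control naive replicates 1 to 3 and 1330, 1159 and 1435 in the Sox2Hi ones, so replicate 3 was the highest of each group. Fibroblast and endothelial markers were 612, 334 and 909 CPM and 614, 572 and 844 CPM. The part of other cell types in the cell cycle values was not tested.

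After treatment, keratinocyte markers summed to 920 and 505 CPM in control and 1122 and 618 CPM in Sox2Hi tumours, and fibroblast and endothelial markers to 98 and 81 CPM and to 352 and 112 CPM. By edgeR's test under the all-gene scaling, 1 of 14 keratinocyte and 4 of 10 fibroblast and endothelial markers fell in control tumours, and 0 of either list in Sox2Hi tumours. The expressed-gene scaling had 5 of 14 and 6 of 7 lower in control tumours, and 2 of 14 and 4 of 7 in Sox2Hi tumours. Erythroid markers were 628, 1660 and 680 CPM in control naive against 227 and 38 CPM in control treated libraries, and 501, 308 and 694 against 25 and 54 CPM in the Sox2Hi graft. Under the all-gene scaling all 14 neutrophil markers rose in control and 4 rose in Sox2Hi tumours, and 12 and 6 rose under the expressed-gene one. Of the 9 precursor markers tested, 7 and 3 rose, among them Ngp, a protein of secondary granules, at 6.25, 16.9 and 8.81 CPM in control naive libraries, then 418 and 466 CPM in control treated ones. Of the other lists, 7 of 12 T and NK cell and 2 of 8 B and plasma cell markers rose in control tumours. Of 12 macrophage and dendritic cell markers 6 rose and 1 fell there, of 5 mast cell markers 1 rose and 3 fell, and of 6 erythroid markers 1 fell. In Sox2Hi tumours 2 T and NK cell markers and 1 mast cell marker rose, and 1 macrophage marker and 3 erythroid markers fell. Under the all-gene scaling 18.7% of all tested genes rose and 15.3% fell in control tumours, and 1.79% and 1.82% in Sox2Hi tumours. Under the expressed-gene scaling 24.1% rose and 33.1% fell in control tumours, and 15% and 6.57% in Sox2Hi tumours. The B and plasma cell and erythroid counts in control tumours are near those shares. The part of these cell types in the cell cycle changes was not tested. Libraries were also split at 500 reads of the Y-linked gene Ddx3y, with libraries on both sides in each group. The split was not clean: the naive libraries numbered 3 held both Ddx3y (1436 reads in the control and 1007 in the Sox2Hi graft) and Xist (146 and 180 reads). The other libraries had either 2814 or more Ddx3y reads with at most 58 of Xist, or at most 8 with at least 251. On each side of the split, 36 and 36 of 45 genes were lower after treatment in control tumours under the all-gene scaling. In Sox2Hi tumours 45 and 44 were. With the expressed-gene factors applied to all 45, the counts were 44, 42, 44 and 44. Each side had 1 or 2 libraries a group, and no test was run. The share of all genes lower on each side was not counted, so these counts do not set the 45 genes apart.

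In naive tumours the 2 grafts did not differ in any of the 45 genes by edgeR's test, where 1.66% of all tested genes were higher in Sox2Hi tumours and 0.209% lower. At an unadjusted p under 0.05 there were 9 genes, or 9 of 45, where 27.3% of all tested genes were. DESeq2 called 7 and limma-voom 8, all higher in Sox2Hi tumours, where 25.8% and 11.8% of the genes tested by each were called higher. The median change was 0.34 with 41 above 0, against -0.08 for all genes and 0.26 for genes in the same range of mean CPM. Plk1, the polo kinase of mitosis, had 3.15, 2.86 and 6.41 CPM in control and 7.13, 7.74 and 10.9 CPM in Sox2Hi naive libraries, with no overlap (1.05, edgeR adjusted p = 0.0822). The count of 0 became 5 without control naive replicate 3, where 5.56% of all tested genes were called higher, and was 0 without any other naive library. Under the expressed-gene scaling the median was -0.02, and 0 of 42 were called, where 2.1% of tested genes were higher and 11.9% lower.

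The naive libraries with the same number in their titles deviated together, and a fit of the 6 naive libraries with that number as a block called 6 genes higher in Sox2Hi tumours, where 8.31% of all genes were. They were Plk1 (1.02, edgeR adjusted p = 0.014), the cell division kinase, and the replication genes, of which the 45 hold 11, Mcm4 (0.65, edgeR adjusted p = 0.036), Mcm6 (0.54, edgeR adjusted p = 0.046), Mcm7 (0.65, edgeR adjusted p = 0.030), Gins2 (0.58, edgeR adjusted p = 0.045) and Cdc45 (0.70, edgeR adjusted p = 0.039). Of these, Plk1 (0.80, edgeR adjusted p = 0.017), Mcm4 (0.42, edgeR adjusted p = 0.041) and Mcm7 (0.42, edgeR adjusted p = 0.048) were called when the block was joined to the expressed-gene scaling, where 8.93% of genes were higher. This second fit was chosen after seeing the data. Read against the 8.31%, 6 of 45 is not far above the share of all genes called.

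In treated tumours the grafts differed in 3 genes under the all-gene scaling, where 4.18% of all tested genes were higher in Sox2Hi tumours and 9.57% lower. E2f1 was higher in Sox2Hi tumours (1.28, SE 0.33, edgeR adjusted p = 0.0292), at 3.30 and 2.30 CPM against 1.51 and 0.81 CPM. The 0.81 CPM, of the second control treated library, lies near background. Ccne1 was lower (-0.92, SE 0.25, edgeR adjusted p = 0.0332), at 2.63 and 2.54 CPM against 4.20 and 5.55 CPM, and Pcna was lower (-0.79, SE 0.24, edgeR adjusted p = 0.0455). With factors from the expressed genes E2f1 was 1.72 (edgeR adjusted p = 0.015) and Ccne1 was -0.47 (edgeR adjusted p = 0.18), and Pcna was -0.34 (edgeR adjusted p = 0.212) under the expressed-gene scaling. That scaling called 4 other genes, all higher in Sox2Hi tumours, where 15% of tested genes were higher and 5.87% lower. Leaving out 1 treated library left 0 all-gene calls without control replicate 2 or Sox2Hi replicate 1, and 1 without Sox2Hi replicate 2. There were also 0 when the naive libraries numbered 3 of both grafts were left out, where E2f1 had an edgeR adjusted p of 0.0517, Ccne1 0.0544 and Pcna 0.0581. Neither the 3 nor the 4 exceed the shares over all genes. The 4 genes were Mcm5 (0.99), the nucleotide synthesis genes Rrm1 (0.65) and Tyms (0.53), and Uhrf1 (0.81), which maintains DNA methylation behind the fork.

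The test of the difference between the treatment effects in the 2 grafts, a graft by treatment interaction, called 8 genes under the all-gene scaling. Of these, 7 had a lower treatment effect in Sox2Hi tumours, where 16.2% of all tested genes did, and 1 had a higher one, where 11.3% did, so neither count exceeds the share over all genes. Ccne1 (-1.28), Mki67 (-1.25), Aurka (-1.21), Pcna (-1.13), Mcm4 (-1.10), Cdc6 (-1.07) and Gins2 (-1.06) were the 7, and E2f1 (1.19) was the 1. The median over the 45 was -0.77, against 0.22 for all genes and -0.58 for genes in the same range of mean CPM. Aurka, the centrosomal kinase, had 10.5, 7.70 and 11.9 CPM in control naive libraries, then 11.8 and 9.91 in control treated ones. Aurka in the Sox2Hi graft had 10.7, 15.5 and 14.9 CPM naive and 6.32 and 6.46 treated. Its treated libraries were thus within the naive range in the control graft and below it in the Sox2Hi graft.

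None of the 6 of these genes that were tested under the expressed-gene scaling passed there. The values were -0.41 for Aurka, -0.43 for Mki67, -0.30 for Mcm4, -0.31 for Pcna, -0.25 for Gins2 and -0.25 for Cdc6. That scaling called 3 others with a higher effect in Sox2Hi tumours and 0 with a lower one, where 16.9% and 2.84% of tested genes were. They were Uhrf1 (1.11, edgeR adjusted p = 0.0115), Tyms (0.93, edgeR adjusted p = 0.0074) and Mcm5 (0.92, edgeR adjusted p = 0.0351). With factors from the expressed genes E2f1 was 2.00 (edgeR adjusted p = 0.0066) and Ccne1 was -0.46 (edgeR adjusted p = 0.27). Under the all-gene scaling the 8 calls became 15 without control naive replicate 3, 1 without Sox2Hi treated replicate 1, 3 without Sox2Hi naive replicate 3 or Sox2Hi treated replicate 2, 7 without the naive libraries numbered 3 of both grafts, and 4 without control naive replicate 1, Sox2Hi naive replicate 2 or either control treated library. Without the naive libraries numbered 3 of both grafts, 15% of all tested genes had a lower effect in Sox2Hi tumours and 8.88% a higher one. Such shares are not given here for the fits without 1 library, so those counts are not read against all genes. E2f1 was lost with RLE factors (0.98, edgeR adjusted p = 0.092), with DESeq2 (0.98, adjusted p = 0.16) and with limma-voom (1.23, adjusted p = 0.056). It was called in 5 of 21 alternatives, against 17 of 21 for Ccne1 and 16 of 22 for Pcna, and the other 5 genes in 10 to 14 of 22.

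A further 78 genes of the cell cycle, chosen by role, were counted beside these 45. Under the all-gene scaling 19 fell and 10 rose in control tumours (median -0.49), and 18 fell and 0 rose in Sox2Hi tumours (median -0.81). Over all tested genes 15.3% fell and 18.7% rose in control tumours, and 1.82% and 1.79% in Sox2Hi tumours. Of 30 genes of mitosis, 11 fell and 1 rose in control tumours, and 12 fell in Sox2Hi tumours. Of 23 replication genes, 4 fell and 2 rose in control tumours, and 5 fell in Sox2Hi tumours. Of 10 genes of G1 and the restriction point, 3 rose in control tumours and 1 fell in Sox2Hi tumours. Of 9 regulators of transcription, 3 fell and 1 rose in control tumours and 0 changed in Sox2Hi tumours. Under the expressed-gene scaling, with 62 tested, 40 fell and 4 rose in control tumours, where 33.1% and 24.1% of all did, and 24 fell and 1 rose in Sox2Hi tumours, where 6.57% and 15% did.

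The largest falls in control tumours were those of Foxm1 (-2.27, edgeR adjusted p = 0.00052), an activator of mitotic genes of whose reads background would supply 71%, and Pbk (-1.78, edgeR adjusted p = 0.00095), a mitotic kinase. The largest rises were those of Pole (1.84, edgeR adjusted p = 0.00019), the catalytic subunit of a replicative polymerase, and Cdkn2d (1.74, edgeR adjusted p = 0.00017). Pole had 10.3, 11.4 and 9.20 CPM in control naive libraries, then 26.6 and 47.3 in control treated ones, and 11.2, 8.73 and 9.24 CPM in Sox2Hi naive libraries, then 10.1 and 13.3 in Sox2Hi treated ones. In Sox2Hi tumours the largest falls were those of Ect2 (-1.94, edgeR adjusted p = 0.0065), which starts cytokinesis, and Pbk (-1.91, edgeR adjusted p = 0.0085).

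Of the 6 genes for inhibitors of cyclin-dependent kinases, 3 rose and 1 fell in control tumours and 0 changed in Sox2Hi tumours under the all-gene scaling. Cdkn1a, or p21, an inhibitor induced by p53, had 403, 360 and 324 CPM in control naive libraries, then 922 and 1142 in control treated ones. Cdkn1a in the Sox2Hi graft had 536, 572 and 475 CPM naive and 617 and 692 treated. Under this scaling both treated libraries were above all 3 naive ones in each graft. It rose by 1.51 in control tumours (SE 0.17, edgeR adjusted p = 6.5e-05; expressed-gene scaling 0.95, edgeR adjusted p = 0.0015), and the Sox2Hi change was 0.31 (edgeR adjusted p = 0.33; expressed-gene scaling 0.58, edgeR adjusted p = 0.043). The Cdkn1a effects differed between grafts under the all-gene scaling (-1.20, edgeR adjusted p = 0.0075) and did not pass under the expressed-gene one (-0.37, edgeR adjusted p = 0.36).

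Cdkn2d, or p19, which inhibits the cyclin D kinases, had 19.2, 15.04 and 21.1 CPM in control naive libraries, then 72.3 and 51.3 in control treated ones. Cdkn2d in the Sox2Hi graft had 28.5, 28.9 and 26.9 CPM naive and 38.5 and 25.1 treated, overlapping, with a change of 0.18 (edgeR adjusted p = 0.71). Its effects differed between grafts under the all-gene scaling (-1.56, edgeR adjusted p = 0.0080) and not under the expressed-gene one (-0.76, edgeR adjusted p = 0.115). Cdkn1b, or p27, rose in control tumours (0.72, edgeR adjusted p = 0.0099) but not under the expressed-gene scaling (0.19, edgeR adjusted p = 0.31), and had a change of 0.07 (edgeR adjusted p = 0.87) in Sox2Hi tumours. Cdkn2c, or p18, had changes of -0.64 (edgeR adjusted p = 0.068) in control and -0.59 (edgeR adjusted p = 0.17) in Sox2Hi tumours. The inhibitor that fell in control tumours was Cdkn2a (-0.995, edgeR adjusted p = 0.0309), the locus of p16 and Arf, named after its value was seen. Cdkn2a had 8.69, 7.96 and 11.7 CPM in control naive libraries, then 5.20 and 4.29 in control treated ones, and its Sox2Hi change was -0.96 (edgeR adjusted p = 0.0969).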

How the data were processed

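The authors deposited 1 table of whole-number counts per gene for 10 libraries. The submitters' processing notes name kallisto 0.44.0 and mm10, with no role given. The 4 deposited counts above 6 digits all end in 0, so counts may be rounded estimates. Per the labels' protocols, RNA came from a microprep column kit and libraries from a low-input kit. Of 55481 entries, 96 that are not mouse genes (0.000992% to 0.00277% of counts) were left out. GENCODE M21 matched 55144 identifiers.

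Counts of all 10 libraries entered 1 edgeR 4.0.16 quasi-likelihood fit (R 4.3.3) by group, with filterByExpr, TMM factors and Benjamini-Hochberg adjustment over all genes tested, called at 0.05. The common biological coefficient of variation was 0.232. DESeq2 1.42.0 and limma 3.58.1 (voom with quality weights), other scalings, filters, replicate blocks, subtraction of background estimated from 1420 olfactory and vomeronasal receptor genes, a Ddx3y term and leaving out each library were alternatives. The fit was also run on simulated counts in which few genes changed. That run cannot test the part of the scaling, and its outcome is not given here. Members and lists were chosen with earlier results of these data known. Genes named were the 3 of highest mean CPM in each role, the largest called rise and fall of each comparison, and Ccne1, Ccne2, Mki67, Top2a and E2f1, besides those stated otherwise. Of the other cell cycle genes these were the 2 largest called rises and falls and 4 inhibitors.

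Same-numbered naive libraries of the 2 grafts deviated together (r across genes 0.274, 0.241 and 0.180), as read from the titles. No 2 libraries of a group agreed within sampling noise (chi-square per degree of freedom at least 12.5). Over all genes the spread between libraries thus exceeded that of depth alone. Whether depth or the number of libraries limits single genes more was not tested.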

Additional observations from a re-analysis of the deposited data

Results flagged for a closer look

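In 8 of the 45 genes the treatment effect differed between the 2 grafts by the interaction test of edgeR under the all-gene scaling. Log2 interaction values below 0 mark a lower effect in Sox2Hi tumours. They were -1.28 for Ccne1 (SE 0.32, adjusted p = 0.0147), -1.25 for Mki67 (SE 0.36, adjusted p = 0.0259), -1.21 for Aurka (SE 0.33, adjusted p = 0.0226) and -1.13 for Pcna (SE 0.30, adjusted p = 0.0198). They were -1.10 for Mcm4 (SE 0.33, adjusted p = 0.0318), -1.07 for Cdc6 (SE 0.33, adjusted p = 0.0356) and -1.06 for Gins2 (SE 0.33, adjusted p = 0.0362). For E2f1 the value was 1.19 (SE 0.41, adjusted p = 0.0482). Over all tested genes 16.2% had a lower and 11.3% a higher effect in Sox2Hi tumours, so 7 and 1 of 45 do not exceed the share over all genes. E2f1 passed with factors from the expressed genes (2.00, adjusted p = 0.0066) and was lost with RLE factors (0.98, adjusted p = 0.092), DESeq2 and limma-voom. It was called in 5 of 21 alternatives, the fewest of the 8, and Ccne1 in 17 of 21. The other 7 missed the threshold or were not tested under the expressed-gene scaling.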

How the results depend on the processing

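Counts of called genes moved as follows, most with the percent of all genes tested that were called in the same direction. Counts of the main fit, counts of 0 and counts with 1 library left out stand without it. For treatment in control tumours, 12 calls (1 higher, 11 lower) became 36 lower with factors from genes of at least 5 CPM (44%), 34 lower with only those genes tested (33.1%), 43 lower by library totals (68%) and 32 lower with background subtracted (15.6%). They became 7, of them 6 lower, with every gene that had a count (4.26%) and 6, of them 5 lower, with only the 2 groups compared (6.15%). Leaving out 1 library gave 1 to 23. For treatment in Sox2Hi tumours, 24 became 37 with DESeq2 (14.8%), 5 without the naive libraries numbered 3 of both grafts (0.22%, chosen after seeing the data), and 0 to 18 with 1 library left out. Every setting run called 0 genes higher there.

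Between naive grafts, 0 became 7 higher with DESeq2 (25.8%), 8 with limma-voom (11.8%), 5 with the replicate block by title number (6.29%), 6 with that block on the naive libraries alone (8.31%), 3 with the block and expressed-gene scaling (8.93%), and 0 to 5 with 1 library left out. The 5 came without control naive replicate 3. Between treated grafts, 3 (1 higher, 2 lower) became 6 higher with factors from expressed genes (15.9%) and 9 higher by library totals (36%). They became 6 with RLE factors, of them 5 lower (13.9%), 5 with the replicate block by title number, of them 4 lower (11.6%), 7 with DESeq2, of them 6 lower (22.3%), and 1, lower, with every gene that had a count (5.03%). By edgeR 0 were left with background subtracted, with only 2 groups and without both naive libraries numbered 3, and 0 to 4 with 1 library left out. Same-numbered treated libraries deviated apart (r = -0.145); a block that crosses their numbers, chosen after seeing the data, called 0 by edgeR, with 3 at an unadjusted p under 0.05. For the interaction, 8 (1 higher, 7 lower) became 5 higher with factors from expressed genes (34.9%), 3 higher under the expressed-gene scaling (16.9%), 6 higher by library totals (41.1%), and 13, of them 12 lower, and 4 lower with the replicate block by title (19%) and by description number (15.7%). It was 14 lower with DESeq2 (25.9%), 1 higher with background subtracted (7.04%) and 1 to 15 with 1 library left out.

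The control treatment effect changed sign for Mki67, at -0.18 under either expressed-gene setting, -0.69 by library totals and -0.072 with background subtracted. For Mcm4 it became 0.17 with RLE factors, 0.083 with every gene that had a count, 0.13 with the replicate block by title number, 0.12 with only 2 groups, 0.17 with DESeq2 and without both naive libraries numbered 3, and -0.22 to 0.20 with 1 library left out. By library totals it was -0.38 for Pcna and -0.51 for Ccne1. Aurka, Gins2, Cdc45, Hmmr, Kif23 and Cdc6, above 0 and not called at first, were below 0 there too, at -0.93, -0.89, -0.80, -0.88, -0.87 and -0.73, and with the expressed-gene scaling. The cause was not tested. Treated groups of 2 and background in weakly expressed genes such as Mcm2, Cdc6, Cenpf and E2f1 limit these results.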
